A study of Mus musculus with 12 samples.

Results

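The inhibitory receptors described here are 10 genes of the Siglec, CD300 and C-type lectin families in RNA-seq counts of mouse eosinophils, taken by symbol from the 53801 genes of the deposited count table. All 10 were found by their Ensembl identifiers. The 4 Siglec genes were Siglecf, Siglece, Siglecg and Cd33, the 4 CD300 genes were Cd300a, Cd300lf, Cd300lb and Cd300c2, and the lectins were Clec12a and Clec4a2. All 10 passed the filter on low counts in every comparison, so no gene of the group is missing below. The study isolated eosinophils from 2 sources, bone marrow and blood, of Atg5-knockout mice (Atg5 flox/flox eoCre Il5tg) and control mice (eoCre Il5tg), which gave 12 libraries in 4 groups of 3. Atg5 encodes a protein needed to build autophagosomes. The Cre recombinase sits in the eosinophil peroxidase gene Epx, so both genotypes carried a changed Epx allele beside the recombinase. Both also carried the Il5 transgene, which drives interleukin-5 from T cells and raises eosinophil numbers, so that no group holds eosinophils of an unmodified mouse. Eosinophils were enriched by depleting other cells with antibodies, Siglec-F being used to assess purity and not to select cells. Before depletion, blood was also separated by density and treated with distilled water to lyse red cells, steps that the Methods do not give for bone marrow. The age of these mice is not given in the sources used here.

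Inhibitory receptors of this kind carry an immunoreceptor tyrosine-based inhibitory motif (ITIM) in the cytoplasmic tail. Src family kinases phosphorylate the motif, which then recruits phosphatases such as SHP-1 (gene Ptpn6), SHP-2 (Ptpn11) or SHIP-1 (Inpp5d) that dampen signals of activating receptors. Siglecs bind sialic acids at the ends of glycans, and CD300 proteins bind lipids such as phosphatidylserine exposed on dying cells. Siglec-F is the standard surface marker of mouse eosinophils, and its ligation promotes their death. The name inhibitory does not cover the whole group. For example, the products of Cd300lb and Cd300c2 have no ITIM of their own and pair with activating adaptors such as DAP12 (Tyrobp).

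Total counts ran from 18885052 to 30270166 per library. All 9 eosinophil marker genes (among them Epx, Prg2, Ccr3 and Il5ra) were detected in every group, with 7.98 to 10.2% of all counts in bone marrow and 1.74 to 3.97% in blood. They did not move as one, 1 being called higher and 6 lower in blood in either genotype. The libraries of both tissues also held RNA of other cells. Proliferation genes of precursors (8 listed, 8 called lower in blood in either genotype) took 0.146 to 0.211% of counts in bone marrow and 0.00417 to 0.0111% in blood, and 5 of 5 genes of natural killer (NK) cells were called higher in blood, with 0.0238 to 0.0506% against at most 0.00068%. The 12 neutrophil genes took 2.27 to 3.24% in bone marrow and 1.19 to 2.13% in blood, and the 12 monocyte and macrophage genes 0.235 to 0.288% and 0.159 to 0.206%, with Marco at 0 in all 12 libraries. Of the neutrophil genes, 0 were called higher and 5 lower in control blood, and 1 and 7 in Atg5-knockout blood. The monocyte and macrophage genes were split, 4 of 10 tested being called higher and 2 lower in control blood, and 3 and 4 in Atg5-knockout blood. Of 10 platelet genes, 8 were called higher and 0 lower in control blood, and 2 and 1 in Atg5-knockout blood. Among the blood libraries, those numbered 1 stood apart in both genotypes. Red cell genes took 14.6% of counts in control blood library 1 against 0.538 and 1.42% in the others, and the 7 B cell genes 0.0403% there and 0.0899% in Atg5-knockout blood library 1 against at most 0.00363% in the remaining 4. The 8 T cell genes took 0.0161% and 0.0277% in these libraries, against at most 0.00428% in the remaining 4. Of the T cell genes tested, 2 of 4 were called higher in control blood and 7 of 7 in Atg5-knockout blood. Results of the members that rest on the blood libraries numbered 1 are given with and without them, and those of further genes where stated. Summed over its exons, Atg5 itself differed by a log2 fold change of -0.44 in bone marrow (adjusted p = 0.157) and -0.01 in blood, neither of them called by edgeR, a sum that does not check the deletion of part of the gene. The study examined Atg5 by quantitative PCR and its protein by immunoblot in eosinophils of both tissues. It also cites its authors' earlier work, in which Atg5-knockout eosinophils lacked autophagy.

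The Siglec genes lie in 1 stretch of chromosome 7 and the CD300 genes in 1 stretch of chromosome 11 (coordinates of the count table, GRCm38). Siglecf (ENSMUSG00000039013) spans chr7:43351341-43359531 and Siglecg chr7:43408204-43418358 on the plus strand, and Cd33 (chr7:43524216-43544428) and Siglece (chr7:43651070-43660161) lie on the minus strand. Cd300a (ENSMUSG00000034652) spans chr11:114890041-114904654 on the plus strand, followed on the minus strand by Cd300lb (chr11:114922781-114934386), Cd300c2 (chr11:114996721-115001880) and Cd300lf (chr11:115116214-115133992). Clec4a2 (chr6:123106428-123143999) and Clec12a (chr6:129342691-129365303) lie farther apart on chromosome 6. No exon base of the 10 genes is shared with another gene of the table. Paralogs can still share reads: of all windows of 100 bases in their transcripts (GENCODE M39), 43 occur in both Cd300a and Cd300c2, which is 0.811% of the former's and 1.63% of the latter's. Cd300lf shares 35 windows with Cd300ld, Clec4a2 shares 64 with Clec4a4, and Siglecf, Cd300lb and Clec12a share none. Siglece shares 34.5% of its windows with transcripts of Ceacam18 in that annotation, though no exon base in the count table.

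The promoter sequences of the Siglec gene of highest level and of the CD300 genes are printed because 4 of these genes were higher in blood than in bone marrow in both genotypes and the remaining one, Cd300lb, was not (below). Each line gives the 250 bases before the RefSeq transcript start (GRCm38.p6), 5′ to 3′ on the gene's strand. Capitals mark matches, on either strand, to any of 5 motifs. Motifs of the GATA family of factors were searched as AGATAA, found in 9.99% of 32851 RefSeq mouse promoters of that length, and as TGATAA, found in 7.94%. The core of the ETS factors, among them PU.1, was searched as GGAAGT and found in 19.7% of promoters. The C/EBP motif was searched as TTGCNNAA (9.56%) and the STAT motif as TTCNNNGAA (7.02%). No match overlapped another in the sequences shown.
Siglecf, chr7:43351091-43351340, plus strand: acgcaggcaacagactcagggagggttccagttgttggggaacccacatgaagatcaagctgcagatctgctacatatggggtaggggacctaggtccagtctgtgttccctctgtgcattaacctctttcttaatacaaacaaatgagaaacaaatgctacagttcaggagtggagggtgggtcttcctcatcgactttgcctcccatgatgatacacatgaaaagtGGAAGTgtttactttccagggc
Cd300a, chr11:114889791-114890040, plus strand: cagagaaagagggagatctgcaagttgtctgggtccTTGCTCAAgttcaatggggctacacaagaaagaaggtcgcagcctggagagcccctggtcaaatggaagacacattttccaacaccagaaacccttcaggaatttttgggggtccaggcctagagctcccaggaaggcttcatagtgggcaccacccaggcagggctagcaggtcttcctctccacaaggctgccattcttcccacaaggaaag
Cd300lf, chr11:115133993-115134242, minus strand: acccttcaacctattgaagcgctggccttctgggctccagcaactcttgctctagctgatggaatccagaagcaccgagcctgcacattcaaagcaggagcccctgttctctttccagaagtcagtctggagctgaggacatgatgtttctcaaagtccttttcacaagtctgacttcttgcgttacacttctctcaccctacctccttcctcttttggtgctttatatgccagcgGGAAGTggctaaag
Cd300c2, chr11:115001881-115002130, minus strand: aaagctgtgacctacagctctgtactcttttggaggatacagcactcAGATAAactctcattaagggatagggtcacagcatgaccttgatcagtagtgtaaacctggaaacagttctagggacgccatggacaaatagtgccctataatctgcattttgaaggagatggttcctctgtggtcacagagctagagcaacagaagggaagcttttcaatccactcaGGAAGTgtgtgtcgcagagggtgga
Cd300lb, chr11:114934372-114934621, minus strand: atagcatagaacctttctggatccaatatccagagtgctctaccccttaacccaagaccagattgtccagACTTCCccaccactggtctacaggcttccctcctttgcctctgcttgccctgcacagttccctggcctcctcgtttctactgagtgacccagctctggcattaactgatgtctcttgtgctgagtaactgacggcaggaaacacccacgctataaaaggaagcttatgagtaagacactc
The last 15 bases of the Cd300lb line are exonic in the count table, and no base of the other lines is. Cd300a held 1 C/EBP match, 207 to 214 bases before the start. Siglecf, Cd300lf and Cd300c2 each held GGAAGT on the gene's own strand at 17 to 22, 9 to 14 and 20 to 25 bases before the start, and Cd300c2 also held AGATAA. Within the last 30 bases before the start, GGAAGT on the gene's strand was present in these 3 of 10 genes and in 1.94% of all promoters, a window chosen after the matches were seen. Clec4a2, not called in either tissue comparison (below), held it just beyond that window, at 27 to 32 bases, and again at 55 to 60. Siglecg, called higher in blood in both genotypes, held no match to any of the 5 motifs, and neither did Siglece. In Cd300lb the match lay on the other strand, 175 to 180 bases before the start. The longest run of bases shared by any of the 45 pairs of these genes' promoters was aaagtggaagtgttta, in Siglecf (starting 27 bases before the start) and Cd33 (157 bases before), and it was found in 2 of the 32851 promoters. Matches are letters only and no binding was measured.

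Levels between genes were compared as counts per 1000000 counts of the library and per kilobase of exon length (CPM per kb, means ± SD, n = 3). In control bone marrow Siglecf (158 ± 12.2) led the group, and its libraries overlapped those of Clec12a (134 ± 17.5), an ITIM lectin of myeloid cells. Cd300lb followed at 85.8 ± 11.46 and was separated from both neighbours. Siglece, Cd300lf, Clec4a2 and Siglecg formed a run from 46.4 ± 3.15 down to 36.7 ± 1.72 in which each overlapped the next. Below them were Cd300a (28.9 ± 4.27), Cd300c2 (7.56 ± 0.465) and Cd33 (4.42 ± 1.09), each separated from its neighbours. On this scale Siglecf stood 312th and Cd33 6001st among 21511 protein-coding genes.

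In control blood the order was different below the top. Siglecf, at 305 ± 36.5 CPM per kb, stood apart from all others and ranked 214th among protein-coding genes. Clec12a (125 ± 45.4), Cd300lf (117 ± 20.9), Cd300a (90.0 ± 29.3) and Cd300lb (85.5 ± 18.7) overlapped in sequence, as did the next genes down to Clec4a2 (40.2 ± 8.66), and Cd33 was again lowest (6.64 ± 1.18). Cd300c2 had moved from rank 4518 among protein-coding genes in control bone marrow to rank 1271 in control blood. Atg5-knockout eosinophils gave the same gene at the top and at the bottom in each tissue. Summed over the 10 genes, the level in CPM was 2209.9 ± 122 in control and 1955 ± 206 in Atg5-knockout bone marrow, and 3455 ± 751 and 3269 ± 572 in blood.

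**Figure D1:**
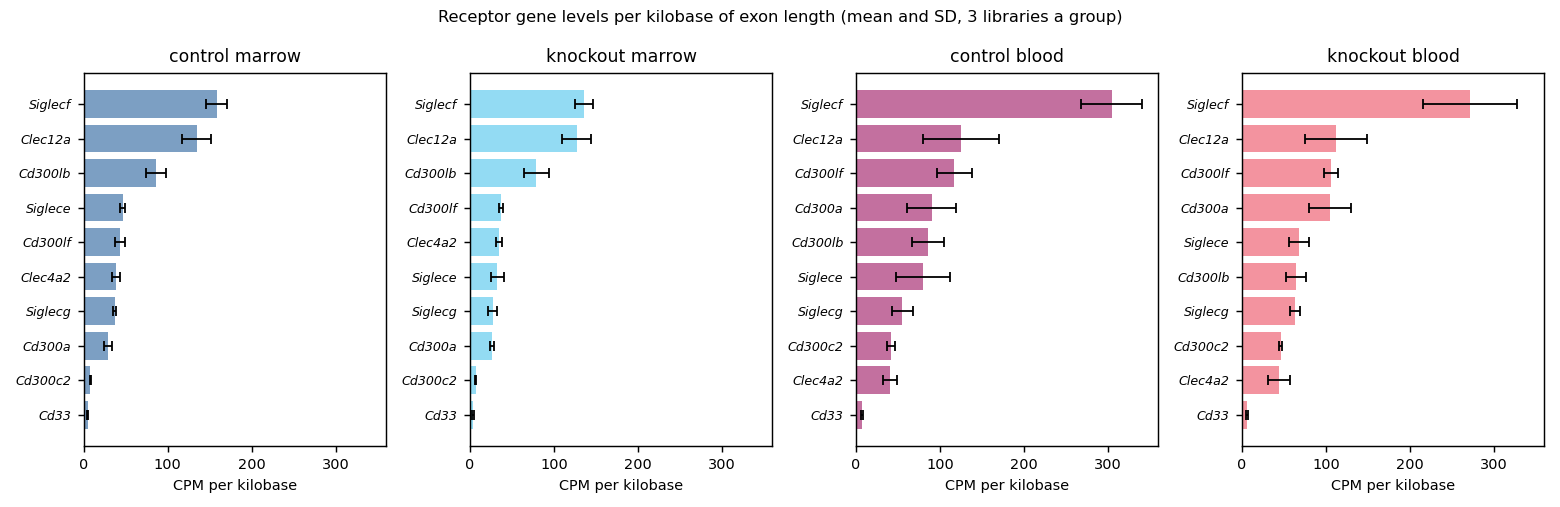
Levels of the 10 receptor genes in CPM per kilobase of exon length, 1 panel per group, with bars for the mean and error bars for the SD of 3 libraries, sorted within each panel. Siglecf leads every panel (158 in control bone marrow, 305 in control blood), Cd33 is last in each, and Cd300a and Cd300lf stand higher in the order in blood.

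Blood was compared with bone marrow within each genotype. Because the isolation differed between the tissues, effects of tissue and of isolation procedure cannot be told apart in this comparison. In control mice 5 of 10 genes were called higher in blood and 0 lower (edgeR quasi-likelihood test, Benjamini-Hochberg adjusted p under 0.05 over all genes), against 16.2% of all 13669 genes tested called higher and 18% lower. In Atg5-knockout mice 6 of 10 were called higher and 0 lower, against 23.5% and 24.1% of 13853 genes. Scaling by library size alone moved the split of all calls from 2212 higher and 2466 lower to 1308 and 3906 in control mice, and from 3256 and 3336 to 2258 and 4333 in Atg5-knockout mice. The median log2 fold change of the group was 0.67 in control and 1.04 in Atg5-knockout mice, and that of all genes 0.00 and -0.01. The 3 blood libraries lay above the 3 bone marrow libraries without overlap for 7 of 10 genes in control mice (23.5% of all genes) and for 6 of 10 in Atg5-knockout mice (27.7%). Cd300c2, Cd300a, Cd300lf, Siglecf and Siglecg were called higher in both genotypes; of all genes, 1903 were called higher in both, which is 86.0% of the control list and 58.4% of the Atg5-knockout list. At a log2 fold change beyond 2, 1 gene was called in control (Cd300c2) and 2 in Atg5-knockout mice (Cd300c2 and Cd300a), against 9.58% and 11.4% of all genes. In bulk RNA, fewer cells of a type and less RNA per cell cannot be told apart.

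Siglecf, the eosinophil Siglec, was higher in blood in both genotypes. Its levels were 464, 402 and 458 CPM in control bone marrow and 736, 931 and 883 CPM in control blood, and 387, 345 and 405 CPM against 591, 785 and 899 CPM in Atg5-knockout mice. The lowest blood library of each genotype, library 1 in both, still lay above every bone marrow library. The log2 fold change was 0.93 ± 0.17 (SE; 1.91-fold, 95% interval 1.47 to 2.48; adjusted p = 0.00318) in control and 1.02 ± 0.17 (2.02-fold, adjusted p = 0.00126) in Atg5-knockout mice, and leaving out any 1 library kept it between 0.86 and 1.16 with an adjusted p of at most 0.0277.

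Siglecg, a receptor best known from B cells, was expressed at 170.4, 186 and 173 CPM in control bone marrow and at 201, 319.5 and 274 CPM in control blood. In Atg5-knockout mice it was at 139.8, 103 and 147 CPM in bone marrow and at 283, 337 and 295 CPM in blood. The groups did not overlap in either genotype, and the gap was wider in Atg5-knockout mice, where the bone marrow values lay below those of control mice. The log2 fold change was 1.25 ± 0.16 (2.37-fold, adjusted p = 0.000326) in Atg5-knockout mice. In control mice it was 0.58 ± 0.19 (1.49-fold, adjusted p = 0.0454), a call that was lost without any of 5 of the 6 libraries (adjusted p 0.0849 to 0.165), all but blood library 1, whose removal gave 0.74 with adjusted p = 0.00199. B cell genes were at their highest in the blood libraries numbered 1, and in each genotype those libraries had the lowest Siglecg level of the 3. The same libraries were also lowest for Siglecf, Siglece, Cd300a, Cd300lb, Clec12a and Clec4a2. The part of B cells in the Siglecg level was not tested.

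Siglece, a Siglec of neutrophils and monocytes, was at 84.9, 92.1 and 80.6 CPM in control bone marrow and 93.2, 211 and 139 CPM in control blood. It was at 71.4, 43.8 and 65.4 CPM in Atg5-knockout bone marrow and 101, 145 and 129 CPM in blood. No blood library reached down to the bone marrow libraries of its genotype, and control blood library 1 came close. Siglece was called in Atg5-knockout mice (log2 fold change 1.07 ± 0.20, 2.10-fold, adjusted p = 0.00252). In control mice it missed the threshold (0.77 ± 0.27, adjusted p = 0.0538) and passed it without blood library 1 (1.02, adjusted p = 0.00175). Cd33, the lowest gene of the group per kb, was at 24.7, 37.5 and 40.7 CPM in control bone marrow and 57.9, 41.1 and 55.8 CPM in control blood, where the groups did not overlap but nearly met. It was at 21.6, 26.3 and 39.8 CPM against 59.3, 38.5 and 39.08 CPM in Atg5-knockout mice, where the groups overlapped. Its log2 fold changes of 0.58 ± 0.23 (adjusted p = 0.0825) and 0.66 ± 0.25 (adjusted p = 0.0581) were not called. Without blood library 1 they were 0.49 (adjusted p = 0.115) and 0.42 (adjusted p = 0.139), and without bone marrow library 3 the latter was called (0.94, adjusted p = 0.0205).

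Of the CD300 genes, 3 were called higher in blood, each with a larger log2 fold change than any Siglec gene, and 1 was not called. Differences between genes were not tested. Cd300c2, whose product pairs with activating adaptors, was at 9.002, 10.2 and 9.73 CPM in control bone marrow and 46.8, 55.2 and 58.4 CPM in control blood. In Atg5-knockout mice it was at 9.06, 8.29 and 9.28 CPM in bone marrow and 60.9, 57.7 and 57.3 CPM in blood. All blood libraries lay far above all bone marrow libraries in either genotype. The log2 fold change was 2.46 ± 0.17 (5.50-fold, 95% interval 4.19 to 7.22; adjusted p = 2.69e-05) in control and 2.74 ± 0.13 (6.68-fold, 5.45 to 8.18; adjusted p = 1.3e-06) in Atg5-knockout mice.

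Cd300a, an ITIM receptor for phosphatidylserine and phosphatidylethanolamine, was at 115, 154 and 141 CPM in control bone marrow and 267, 513 and 500.2 CPM in control blood. It was at 128, 111 and 134 CPM in Atg5-knockout bone marrow and 362, 554 and 578 CPM in blood. Blood library 1 was the lowest blood library in both genotypes and lay well above bone marrow in both. The rise was 3.09-fold in control (log2 fold change 1.63 ± 0.26, adjusted p = 0.00205) and 4.04-fold in Atg5-knockout mice (2.02 ± 0.19, adjusted p = 6.18e-05). Without blood library 1 the log2 fold change was 1.88 in control and 2.197 in Atg5-knockout mice.

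Cd300lf, an ITIM receptor that also serves murine norovirus as its entry receptor, was at 189, 234 and 244 CPM in control bone marrow and 488, 617 and 702 CPM in control blood. Its levels were 178, 189.8 and 201 CPM in Atg5-knockout bone marrow and 526, 596 and 518 CPM in blood, again with no overlap. The log2 fold change was 1.43 ± 0.19 (2.69-fold, adjusted p = 0.000828) in control and 1.54 ± 0.12 (2.91-fold, adjusted p = 2.47e-05) in Atg5-knockout mice. The calls of Cd300c2, Cd300a and Cd300lf held in both genotypes without any 1 library, the highest adjusted p among these fits being 0.0167. NK cell genes were higher in blood too and precursor genes lower, and their part in these differences was not tested.

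Cd300lb, the neighbour of Cd300a that pairs with DAP12, did not follow the other CD300 genes. It was at 275, 212 and 264 CPM in control bone marrow and 197, 246 and 306 CPM in control blood. It was at 217, 195 and 278 CPM in Atg5-knockout bone marrow and 151, 217 and 195 CPM in blood, and the groups overlapped in both genotypes. The log2 fold change was -0.02 (95% interval -0.47 to 0.43, adjusted p = 0.957) in control and -0.28 (-0.68 to 0.12, adjusted p = 0.221) in Atg5-knockout mice. An interval reaching 0.43 leaves out a rise of the size measured for Cd300a, Cd300lf or Cd300c2.

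The lectins were not called in either genotype. Clec12a, which senses uric acid crystals, was at 641, 834 and 751 CPM in control bone marrow and 402, 837 and 834 CPM in control blood, and at 797, 608 and 704 CPM against 386, 695 and 768 CPM in Atg5-knockout mice. Blood library 1 of each genotype lay below every bone marrow library and the others did not, and the log2 fold changes were -0.12 ± 0.28 (adjusted p = 0.775) and -0.18 ± 0.24 (adjusted p = 0.571). Without blood library 1 they turned to 0.16 (adjusted p = 0.391) and 0.07 (adjusted p = 0.707). Clec4a2, an ITIM lectin of dendritic and other myeloid cells, was at 96.8, 123 and 113 CPM in control bone marrow and 101, 147 and 105 CPM in control blood. It was at 108, 88.6 and 107 CPM in Atg5-knockout bone marrow and 90.7, 125 and 166 CPM in blood, with overlap in both genotypes. Its log2 fold change was 0.07 ± 0.19 (adjusted p = 0.801) in control and 0.35 ± 0.20 (adjusted p = 0.193) in Atg5-knockout mice, where it was called without blood library 1 (0.54, adjusted p = 0.0134).

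**Figure D2:**
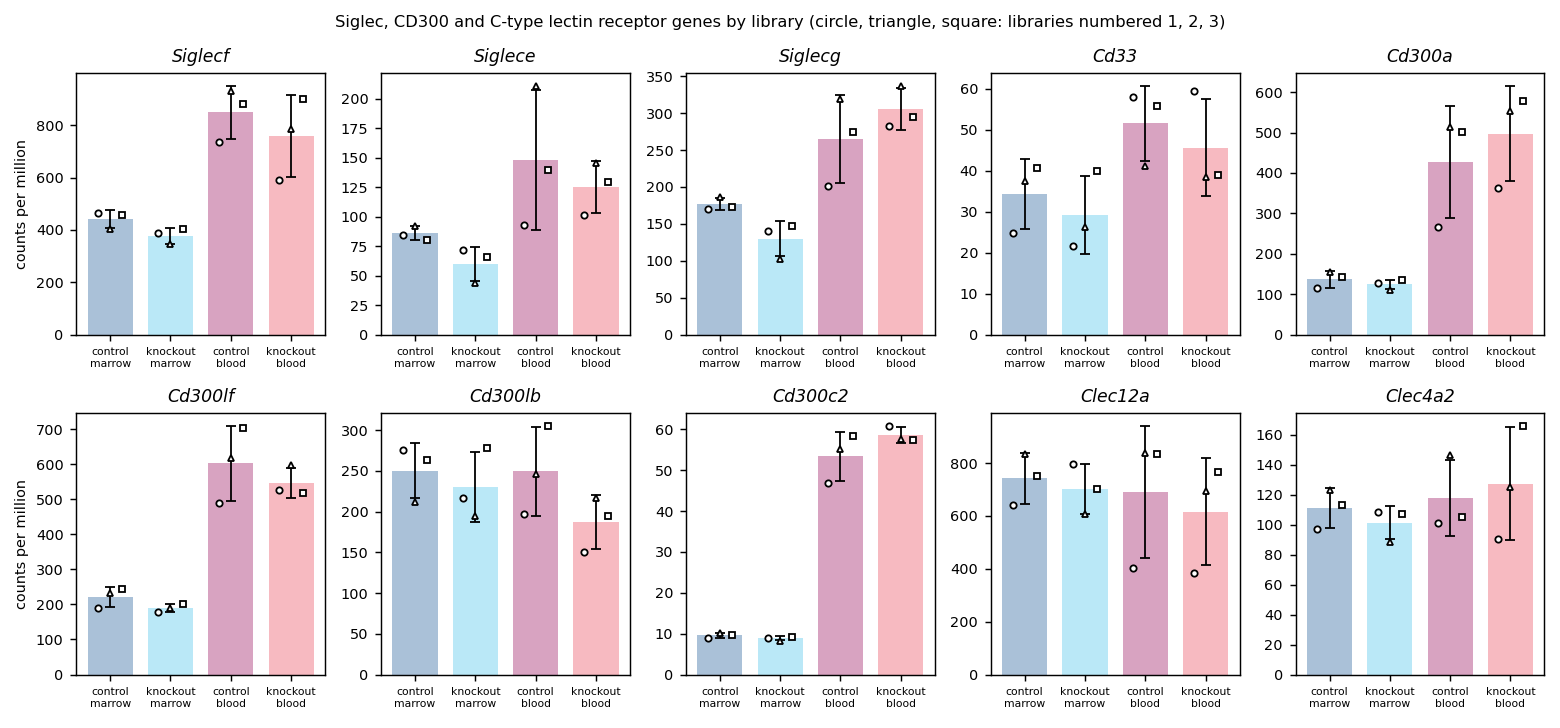
CPM of the 10 genes in each library, 1 panel per gene, with the y axis from 0, bars for the mean of 3 libraries, error bars for the SD and a symbol for each library number. Blood lies above bone marrow without overlap in both genotypes for Siglecf, Siglece, Siglecg, Cd300a, Cd300lf and Cd300c2, and the circles of the blood libraries numbered 1 are the lowest of their group for Siglecf, Siglece, Siglecg, Cd300a, Cd300lb, Clec12a and Clec4a2.

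The comparison of Atg5-knockout with control eosinophils asks whether these receptors change with the loss of Atg5 within a tissue. In bone marrow 0 of 10 genes were called by edgeR, against 0.348% of all 13781 genes, and 0 by DESeq2. Every log2 fold change of the group was below 0, as for 49.4% of all genes, with a median of -0.21 against 0.00 for all genes. At an unadjusted p under 0.05 there were 3 genes, Siglecg, Siglece and Siglecf, against 5.31% of all genes in that direction.

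Siglecg and Siglece had the largest differences in bone marrow. The Atg5-knockout libraries of both (at most 147 and 71.4 CPM) lay below all control libraries (at least 170.4 and 80.6 CPM), as was so for 5.67% of all genes. The log2 fold change was -0.47 ± 0.14 for Siglecg (adjusted p = 0.239) and -0.54 ± 0.16 for Siglece (adjusted p = 0.249). Without the filter on low counts both were called, with adjusted p of 0.00932 and 0.0014, in a fit that called 420 of 24522 genes. Siglecf differed by -0.25 ± 0.11 (adjusted p = 0.488) with overlapping groups. The other 7 genes ranged from -0.26 (Cd33 and Cd300lf) to -0.11 (Clec12a), all with overlap. Precursor genes took 0.171 to 0.211% of counts in Atg5-knockout and 0.146 to 0.165% in control bone marrow, and their part in these values was not tested.

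In blood 0 of 10 genes were called by edgeR, against 0.0371% of all 13460 genes, 0 by DESeq2, and 0 had an unadjusted p under 0.05, against 2.58% of all genes. The groups overlapped for all 10, and were apart for 7.59% of all genes. The log2 fold changes ran from -0.39 ± 0.22 for Cd300lb (95% interval -0.90 to 0.11) to 0.24 ± 0.29 for Cd300a (-0.42 to 0.91). Siglecg, at -0.47 in bone marrow, was at 0.22 ± 0.21 in blood. Siglecf differed by -0.14 ± 0.21 (-0.63 to 0.34), an interval that holds a fall as large as that measured in bone marrow and also no change. Without both blood libraries numbered 1, again 0 genes were called. Libraries of the same number in the 2 genotypes deviated together in blood, so the values were also read by number. Cd300lb was lower in the Atg5-knockout library of each number (151 against 197 CPM, 217 against 246 and 195 against 306), as was Clec12a, and Cd300a and Siglecg were higher in each. These were 4 of 10 genes with the same direction in all 3 pairs, against 30.8% of all genes. With the number as a block, 0 genes were called and 1 had an unadjusted p under 0.05, against 7.59% of all genes. This was Cd300lb (-0.39 ± 0.15, adjusted p = 0.638).

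**Figure D3:**
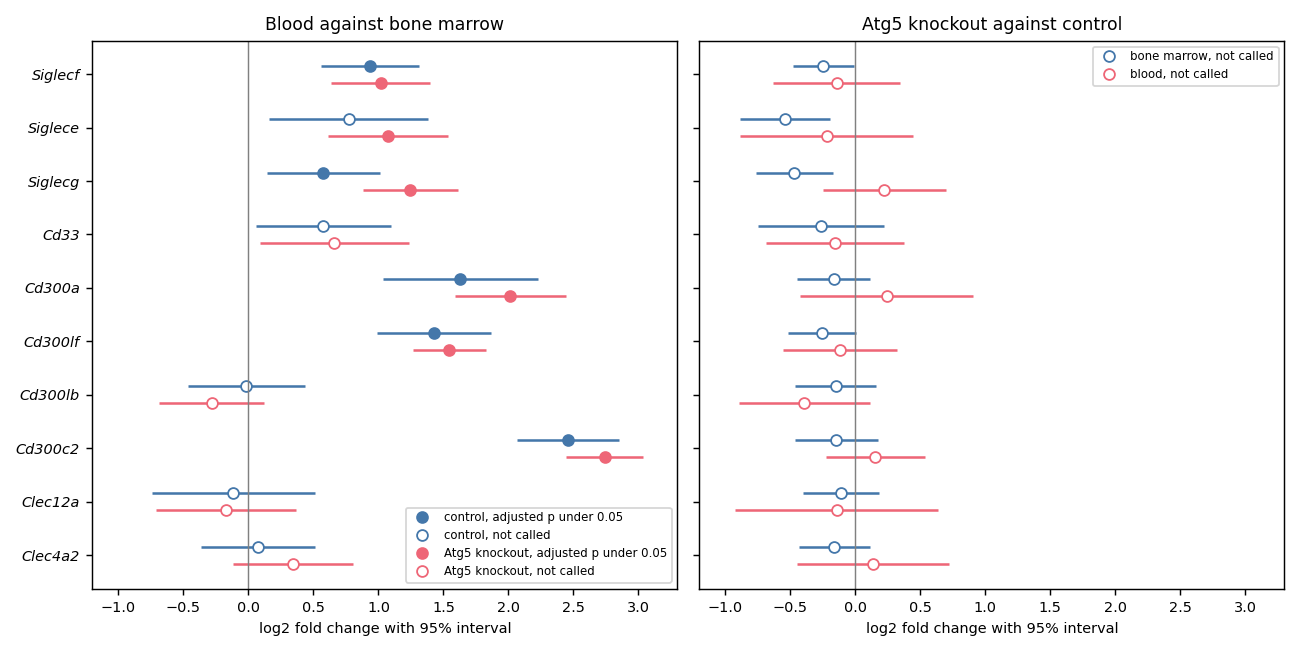
Log2 fold changes of the 10 genes with 95% intervals, for blood against bone marrow (left, control and Atg5-knockout mice) and Atg5-knockout against control (right, bone marrow and blood). Filled points passed an adjusted p of 0.05: 5 and 6 genes on the left, led by Cd300c2 at 2.46 and 2.74, and 0 on the right, where the bone marrow points all lie below 0.

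Whether the effect of the knockout differed from tissue to tissue was tested as an interaction over all 12 libraries. Neither edgeR nor DESeq2 called a gene of the group, and of all 14712 genes edgeR called 0%. At an unadjusted p under 0.05 there was 1 gene, against 5.03% of all genes. This was Siglecg, with an interaction of 0.64 ± 0.25 on the log2 scale (adjusted p = 0.942), with Atg5-knockout means below control in bone marrow and above it in blood. That Siglecg and Siglece rose more in Atg5-knockout than in control mice on going to blood is therefore not shown.

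Ratios within a library do not depend on the scaling between libraries. Per kb, Cd300a stood at 0.256 to 0.447 times Cd300lb in control bone marrow and at 0.834 to 1.28 times in control blood. In Atg5-knockout blood the ratio was 1.48 to 1.83, above every control blood library, while in bone marrow the genotypes overlapped. Cd300c2 to Cd300lb was 0.0748 to 0.110 in control bone marrow, 0.437 to 0.544 in control blood and 0.609 to 0.924 in Atg5-knockout blood. Cd300lf to Cd300lb was 0.389 to 0.623, 1.30 to 1.42 and 1.51 to 1.98 in the same groups. The genotypes were thus separated in blood in all 3 ratios, which share their denominator. Cd300lb, that denominator, had the lowest log2 fold change of the 10 genes between the genotypes in blood (-0.39). How often ratios of other gene pairs separate the genotypes was not computed. The exact permutation test of each of the 3 ratios gave p = 0.1, the smallest that 3 against 3 libraries allow, and an adjusted p of 0.333 over the 10 ratio tests made. This design could therefore not have reached 0.05, and the test leaves undecided whether the ratios differ. Siglecf to Cd300lb overlapped between genotypes in both tissues.

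**Figure D4:**
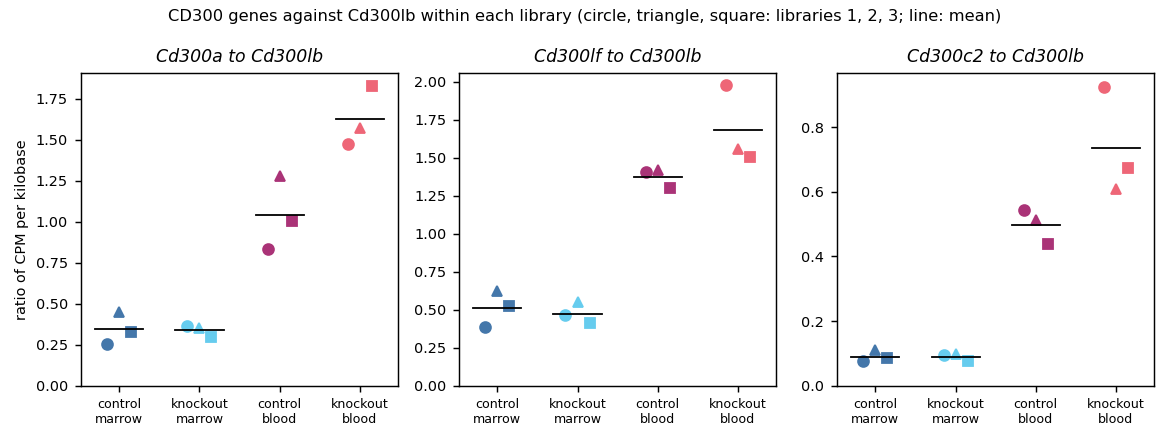
Ratios of Cd300a, Cd300lf and Cd300c2 to Cd300lb within each library, in CPM per kilobase, with a symbol for each library number and a line for the mean. All 3 ratios are higher in blood than in bone marrow. Atg5-knockout blood (1.48 to 1.83 for Cd300a) lies above control blood (0.834 to 1.28), a separation for which the exact permutation test gave p = 0.1, its smallest possible value.

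Genes that work with these receptors were followed in lists. For all lists below, the shares of all genes called in blood of control mice were 16.2% higher and 18% lower. In Atg5-knockout mice they were 23.5% and 24.1%. Of 13 further Siglec and CD300 genes, 8 were tested in control mice, where 4 were called higher in blood (Cd300e, Cd300ld3, Cd22 and Cd300ld) and 1 lower (Siglech). Of 9 tested in Atg5-knockout mice 5 were called higher and 2 lower, the added ones being Siglec1 and Cd300lg. Cd300e, an activating receptor of monocytes, went from 0.236 ± 0.144 CPM in control bone marrow to 14.4 ± 6.75 CPM in control blood (log2 fold change 5.85 ± 0.55, adjusted p = 0.000112). Cd22, a Siglec of B cells, was at 29.2, 4.57 and 2.70 CPM in control blood and at 49.6, 4.65 and 3.78 CPM in Atg5-knockout blood, so that the libraries numbered 1, those with the most B cell genes, stood far above the rest. Its log2 fold change in control mice was 4.22, and 2.49 without blood library 1 (adjusted p = 0.000955). Siglech, a marker of plasmacytoid dendritic cells, fell by 2.01 ± 0.36 on the log2 scale in control mice (adjusted p = 0.00309). The names of Cd22, Cd300ld, Siglec1 and Cd300lg were added after their values were seen.

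Of 19 tested inhibitory receptors of myeloid cells outside the group, most of them ITIM receptors, 9 were called higher and 2 lower in blood of control mice, and 11 and 2 in Atg5-knockout mice. Of all genes, 16.2% and 18% were called in control and 23.5% and 24.1% in Atg5-knockout mice. Lair1, a collagen receptor, rose from 43.3 ± 1.61 to 176 ± 18.9 CPM in control mice (log2 fold change 2.01 ± 0.16, adjusted p = 4.15e-05) and Pilra from 20.8 ± 2.80 to 94.0 ± 16.5 CPM (2.16 ± 0.20, adjusted p = 0.0001). Cd200r1, an inhibitory receptor for CD200 that has no ITIM, fell by 1.93 ± 0.20 on the log2 scale (adjusted p = 0.000195). Clec4a3 and Clec4a1, lectins of the same family as Clec4a2 and named after their values were seen, were among the higher calls (1.17 ± 0.29, adjusted p = 0.0138, and 0.87 ± 0.29, adjusted p = 0.0464). Without blood library 1 Clec4a3 kept its call (1.01, adjusted p = 0.0156) and Clec4a1 lost it (0.69, adjusted p = 0.0725).

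Downstream of the receptors, Ptpn6 (log2 fold change 0.88 ± 0.22, adjusted p = 0.0156) and Csk (0.61 ± 0.19, adjusted p = 0.0366) were called higher in control blood among 5 phosphatase and Csk pathway genes, and Inpp5d was not (0.43 ± 0.16, adjusted p = 0.0645), though it was without blood library 1 (0.41, adjusted p = 0.0467). In Atg5-knockout mice Ptpn6, Csk and Inpp5d, 3 of the 5, were called higher and 1 lower (Ptpn11, -0.52 ± 0.14, adjusted p = 0.0136). Among kinases of the Src and Syk families, Fyn (log2 fold change 1.70 ± 0.37, adjusted p = 0.0078), Syk (0.93 ± 0.25, adjusted p = 0.0217) and Lyn (0.51 ± 0.15, adjusted p = 0.025) were called higher in control blood, Lyn being named after its values were seen. Fyn was at 80.7, 31.5 and 30.9 CPM in control blood, so that library 1 stood far above the others, and its log2 fold change without that library was 1.10 (adjusted p = 0.000901). The adaptors Tyrobp, Hcst and Fcer1g, which transmit signals of the activating partners, were all called higher in both genotypes, with log2 fold changes of 1.15 ± 0.20, 1.10 ± 0.26 and 0.85 ± 0.22 in control mice. Hence genes for inhibitory and for activating signalling were both among the calls.

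Of 19 tested genes of sialic acid metabolism, sialic acid being the ligand of Siglecs, 6 were called higher and 2 lower in control blood and 8 and 3 in Atg5-knockout blood. The shares of all genes were 16.2% and 18% in control and 23.5% and 24.1% in Atg5-knockout blood. Of these 19, 17 serve the synthesis, modification, transport or attachment of sialic acid (5 higher and 2 lower in control, 7 and 2 in Atg5-knockout blood) and 2 are sialidases, which remove it. Neu1, a sialidase, was called higher in both genotypes (0.66 ± 0.21, adjusted p = 0.037 in control mice), and Neu3, the other, lower in Atg5-knockout mice. Without blood library 1 the Neu3 call was lost (-1.12, adjusted p = 0.054). So was that of Cmah, among the higher calls in Atg5-knockout blood (0.51, adjusted p = 0.145), while other genes of the list gained a call. The lower calls in control blood were Gne (-0.96 ± 0.21) and Nans (-0.69 ± 0.17), enzymes of sialic acid synthesis. The names of Neu1, Neu3, Cmah, Gne and Nans were added after their values were seen. St6gal1, the enzyme that adds sialic acid in α2,6 linkage, rose by 1.80 ± 0.18 on the log2 scale (adjusted p = 0.000187), Cmas by 0.88 ± 0.17 and St3gal6 by 2.10 ± 0.41. In the genotype comparisons no gene of any of these lists was called in either tissue, against 0.348% of all genes in bone marrow and 0.0371% in blood. The lowest adjusted p was that of Cd300ld in bone marrow, where the gene was at 95.5, 123 and 129 CPM in control and 77.0, 55.4 and 73.6 CPM in Atg5-knockout mice, without overlap (log2 fold change -0.79 ± 0.15, adjusted p = 0.0544). In the other lists the gene of lowest p in bone marrow was Ceacam1 (0.41 ± 0.17), Csk (-0.24 ± 0.11), Fyn (0.30 ± 0.13), Hcst (-0.43 ± 0.17) or St3gal4 (-0.37 ± 0.11), with adjusted p of 0.238 to 0.535.

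**Figure D5:**
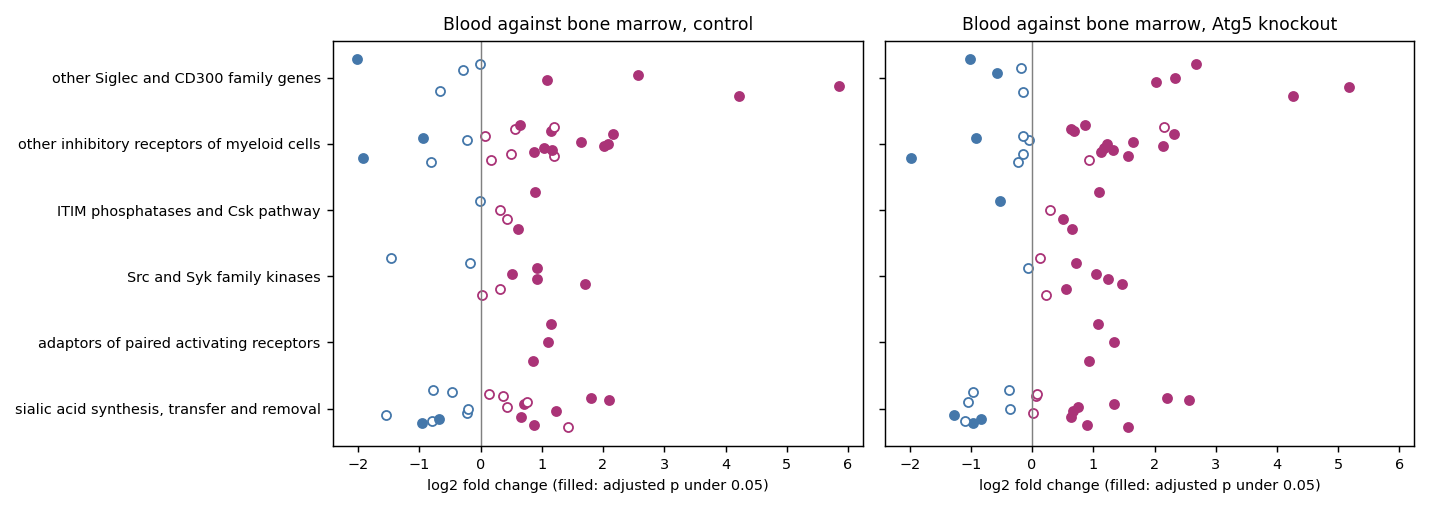
Log2 fold changes for blood against bone marrow of the genes tested in the 6 related lists, 1 point per gene, in control (left) and Atg5-knockout mice (right), with filled points for an adjusted p under 0.05. Calls run in both directions in the lists of other Siglec and CD300 genes (Cd300e at 5.85 in control mice is the point farthest right) and of other inhibitory receptors, and all 3 adaptor genes are called higher in both panels.

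The genes whose log2 CPM followed each member most closely were taken over the 12 libraries from 14712 genes, as a description, since the libraries share the tissue difference. Cd300lf and Cd300c2 had the closest pattern among the members (Pearson r = 0.982), followed by Cd300a with Cd300lf (0.965) and with Cd300c2 (0.962). For Cd300c2 the closest genes were Samhd1 (0.996), Nadk (0.994) and Pilra (0.993), and for Cd300a they were AB124611 (0.995), Sat1 (0.994) and Trem5 (0.994). Siglecf was closest to Oaz2 (0.990), Pygl and Pttg1ip, Cd300lf to Gm12589 (0.996), Ak8 and Sfxn3, and Siglece to Sirpa (0.960), Ric8a and Tfeb. Siglecg was closest to Cd300ld (0.981), the gene with the lowest adjusted p of the lists in Atg5-knockout bone marrow, then to Lst1 and Gm26532. For the genes not called in either tissue comparison the closest genes were Armc7 (0.875) for Cd300lb, Agpat5 (0.964) for Clec12a, 2300009A05Rik (0.927) for Clec4a2 and Sfn (0.929) for Cd33.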

How the data were processed

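RNA-seq counts of eosinophils from bone marrow and blood of Atg5-knockout and control mice were used (12 libraries, 4 groups of 3, from the sample titles). According to the Methods, the authors sequenced stranded mRNA libraries as single reads of 100 bases on one lane, aligned them with HISAT2 2.2.1 and counted reads per gene with featureCounts. The deposited values are whole-number counts in the format that featureCounts writes. Per the file headers, version 2.0.1 was run with Ensembl 92 (GRCm38), with its paired-end option and without options for strand or for reads that map more than once. The Methods name an annotation on GRCm39. Reads of antisense genes were therefore not separated, and reads shared by paralogs are not in the counts. Symbols came from GENCODE M39 (49674 of 53801 identifiers) and 250-base promoters from RefSeq (GRCm38.p6, 10 of 10 members found). Proteins were not analysed here, and 1 gene of the kinase list is not reported here.

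Counts were tested with edgeR 4.0.16 (R 4.3.3), by its quasi-likelihood test with TMM factors, edgeR's expression filter (at least 10 counts, 15 in total), a prior count of 0.125 and Benjamini-Hochberg adjustment over all genes, two-sided, on the 6 libraries of each comparison and on all 12 for the interaction. A gene was called at an adjusted p under 0.05. The fits were also run on simulated counts, except for the interaction. The simulated spread between libraries was set near that fitted in the bone marrow genotype comparison (coefficient of variation 0.146). It was below that of the blood genotype comparison (0.365), so the simulation does not show how the fits perform there. Levels are counts per 1000000 (CPM) with TMM factors over 12 libraries. With 3 libraries a group, p-values measure the spread between these libraries, and the labels do not say whether blood and bone marrow of the same number are from the same mouse.

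The members and lists were chosen with earlier results of these data known. All 10 members were named, with the 3 genes of lowest p per related list in the control tissue comparison and in each genotype comparison (none of the latter was called, and only the first of each list in bone marrow is printed), and the 3 closest genes by correlation of log2 CPM (prior count 2). In blood, same-numbered libraries of the genotypes deviated together (correlations of deviations from group means 0.50, 0.21 and 0.30 over genes), so blood values were also read by number. Deviations within a group of 3 sum to 0, so these correlations depend on one another, and libraries of different number were not compared. No source says what same-numbered libraries share. In bone marrow these were -0.15, -0.11 and 0.0041, and between tissues -0.11 to 0.13. Alternatives were DESeq2 1.42.0, other scaling, no filter, all 12 libraries in the fit, a replicate block, a fold change limit and leaving out libraries (for the related genes blood library 1, chosen after seeing the data).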

Additional observations from a re-analysis of the deposited data

How the results depend on the processing

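The members had at least 252 counts in every library. In the genotype comparisons no member was called under DESeq2-type (RLE) factors, library size alone, DESeq2, a fit of all 12 libraries or without any 1 library, and in bone marrow 2 were called without the filter on low counts (Siglece and Siglecg). In the tissue comparisons the count of members called ran from 4 to 6 in control and from 6 to 7 in Atg5-knockout mice over all alternatives but 1. With the study's limit of a log2 fold change beyond 2 it was 1 (Cd300c2) and 2 (Cd300c2 and Cd300a), against 9.58% and 11.4% of all genes in either direction. Leaving out each library in turn gave 4 to 6 and 6 to 7. In control mice Siglecg lost its call with library size alone (adjusted p = 0.316) and without the filter (adjusted p = 0.0599), and Siglece gained one under RLE factors, DESeq2, all 12 libraries and no filter (adjusted p from 0.0107 to 0.0444). In Atg5-knockout mice Cd33 gained one with no filter (adjusted p = 0.0306) and DESeq2 (adjusted p = 0.0317). Over all genes, the calls in bone marrow were 48 with edgeR, 192 with DESeq2, 420 without the filter and 12 with all 12 libraries, in blood 5, 23, 77 and 16, and in the interaction 0, 11 and 119. The summed level in control bone marrow moved from 2209.9 to 2426 CPM without TMM factors. The cause of these changes was not tested.

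Library size alone moved the median of all genes to -0.31 in the control and -0.24 in the Atg5-knockout tissue comparison. It turned Clec4a2 in control mice to -0.23, which is 0.08 above that median, and called Cd300lb lower in Atg5-knockout mice at -0.52 (adjusted p = 0.0201), which is -0.28 relative to it.

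Other values that turned direction were not called. Cd300lb in the control tissue comparison was 0.019 under RLE factors and 0.00058 under DESeq2, and Cd33 in the interaction was -0.062 without both blood libraries numbered 1, an alternative added after the data were seen. Leaving out 1 library in turn, the Atg5-knockout effect in blood ranged from -0.47 to 0.12 for Siglece, -0.0061 to 0.42 for Cd300a, -0.25 to 0.0055 for Cd300lf, -0.42 to 0.095 for Clec12a and -0.11 to 0.33 for Clec4a2. The control tissue difference ranged from -0.18 to 0.13 for Cd300lb, -0.27 to 0.16 for Clec12a and -0.11 to 0.17 for Clec4a2, and that of Atg5-knockout mice from -0.37 to 0.069 for Clec12a. The interaction ranged from -0.088 to 0.23 for Siglecf, -0.15 to 0.34 for Cd33, -0.046 to 0.21 for Cd300lf and -0.37 to 0.19 for Clec12a. Directions of Siglecf, Siglece, Siglecg, Cd33, Cd300a, Cd300lf and Cd300c2 in both tissue comparisons, and of all 10 members in bone marrow, held under every alternative run.

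With the replicate block, 0 members were called in either genotype comparison and in the interaction, and 6 in each tissue comparison, Siglece being added in control mice (adjusted p = 0.0328). Over all genes the block gave 23 calls in bone marrow in place of 48 and 10 in blood in place of 5. It changed no other call of the members, and no source says what libraries of the same number share.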
